A study of Homo sapiens with 15 samples.

Results

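Cardiolipin is a phospholipid of the inner mitochondrial membrane, where it binds the respiratory complexes and cytochrome c. The 10 genes described here encode the enzymes that build and remodel it: GPAT3, AGPAT3, CDS1, CDS2, PGS1, PTPMT1, CRLS1, TAFAZZIN, LCLAT1 and HADHA. They were measured by 13 of the 42405 non-control probes of an Agilent human expression array, whose probes named 19483 genes in all. A probe was taken when the design accession of its spots was a RefSeq accession of a member gene, and CDS1, PTPMT1 and LCLAT1 had more than one such probe. No measured value entered the choice of probes. All 13 probes were well above background on each of the 15 arrays, so none was lost to the filter on dim probes.

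Synthesis starts with acylation of glycerol 3-phosphate to lysophosphatidic acid and then to phosphatidic acid, which CDP-diacylglycerol synthases activate with CTP. Phosphatidylglycerol phosphate synthase and a phosphatase then make phosphatidylglycerol, and cardiolipin synthase joins it to another CDP-diacylglycerol. New cardiolipin is deacylated and refilled with other acyl chains by the remodelling enzymes. The acyl chains set how readily the lipid is oxidised, and oxidised cardiolipin is known to loosen the hold of cytochrome c on the membrane early in apoptosis.

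The cells were PE/CA-PJ41, an established line from a human oral squamous cell carcinoma, kept for 24 h in supplemented medium without drug before RNA was taken. CYGB+ denotes a stable G418-selected line carrying the human cytoglobin cDNA in the pCMV6-Neo plasmid, in which the CMV promoter drives the transgene, and by the methods of the study these cells were a single clone, LST421. NCE denotes the control, which the sample labels describe as carrying an empty vector and the study elsewhere calls untransfected. Each group had 3 biological replicates from separate RNA extractions, hybridised on 3 array repeats each for NCE and 2 each for CYGB+. With 1 clone, what belongs to cytoglobin and what belongs to that clone cannot be told apart. In bulk RNA, fewer cells of one type and less RNA per cell cannot be told apart either.

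The cytoglobin probe did not separate the groups. Its log2 signal was 11.85, 12.15 and 11.96 in the NCE replicates and 11.38, 12.44 and 11.97 in the CYGB+ replicates, and it was well above background on all 15 arrays. The difference of -0.05 ± 0.25 (log2, SE, n = 3 per group) was not significant (limma, adjusted p = 0.913). The study describes the parent line as not expressing cytoglobin, and its name NCE stands for non-cytoglobin expressing. A bright signal in NCE is at odds with that description, and the cause was not tested. Where this probe lies in the transcript, and whether the transfected cDNA holds that stretch, is not given in the sources used here. NCE and CYGB+ therefore name replicates by their labels throughout, and each direction given rests on those labels.

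Of the 15 arrays, 8 NCE arrays shared the first slide, and the remaining NCE array shared the second slide with all 6 CYGB+ arrays. Slide and group were thus nearly confounded, and the single NCE array on the second slide (replicate 1, array repeat 3) is the only link between them. Between 53.8% and 61.3% of spots were well above background. On the first slide the median raw green signal per array was 61 to 76, over a local background of 24 to 29. On the second slide it was 45 to 62.5, over a background of 37 to 43. Signal thus stood out less from background on the slide that held all CYGB+ arrays. What this did to the differences below was not tested. Array repeat 1 of CYGB+ replicate 1 stood apart, with a median correlation of 0.940 with the other arrays of its group against 0.974 to 0.992 for the other 14 arrays. All 9 squamous epithelial markers were well above background on all arrays, and 1 of them, KRT6A, was lower in CYGB+ (-0.46 on the log2 scale, adjusted p = 0.0448 in limma). With slide as a block in the fit, the KRT6A difference came to -0.045 (limma, adjusted p = 0.978). The other squamous markers were not called, with differences from -0.47 (EPCAM) to 0.76 (KRT14). Of the markers of other cell types, CD68 and COL1A2 were well above background on all 15 arrays, CDH5 on 14 and COL1A1 on 13, each probe of DCN and PDGFRA on 1, and VWF and LUM on none. COL1A2 was lower in CYGB+ with a log2 difference of -1.32 (limma, adjusted p = 0.0031), COL1A1 had a difference of 0.10 (adjusted p = 0.705), and the part of these markers in the results below was not tested.

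Of the 10 genes, 4 fell in CYGB+. They were the acyltransferases GPAT3 and AGPAT3, the CDP-diacylglycerol synthase CDS2 of the endoplasmic reticulum and the cardiolipin synthase CRLS1. GPAT3 was 2.40-fold lower, CDS2 2.00-fold, CRLS1 1.69-fold and AGPAT3 1.47-fold. No member probe rose. No probe of the phosphatidylglycerol steps or of the remodelling enzymes passed the test.

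Counted over probes, 4 of 13 fell, 0 rose and 9 were not called at an adjusted p of 0.05. Over all 22311 probes tested, 10.8% were called, 5.32% lower and 5.5% higher. The median log2 difference of the 13 probes was -0.05, beside 0.00 over all probes, with 7 below 0 and 6 above. The replicates did not overlap for 5 member probes, all with CYGB+ below NCE, against a background of 16.7% of all probes in that direction and 16.6% in the other. The study had reported AGPAT3, CDS1, CDS2, CRLS1 and LCLAT1 as down-regulated from the same arrays, so the count is not independent evidence of a direction. CDS1 and LCLAT1 were not called by the fit used here. The study called a larger share of its transcripts, at the same false discovery rate, than the 10.8% called here. The missing calls therefore do not show that CDS1 and LCLAT1 were unchanged. For phosphatidylglycerol phosphate synthase the study reported no change, and PGS1 was not called here. The study also described TAFAZZIN (as TAZ), HADHA and the phosphatidylglycerol phosphate phosphatase as missing from the array, whereas each had a probe here.

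**Figure D1:**
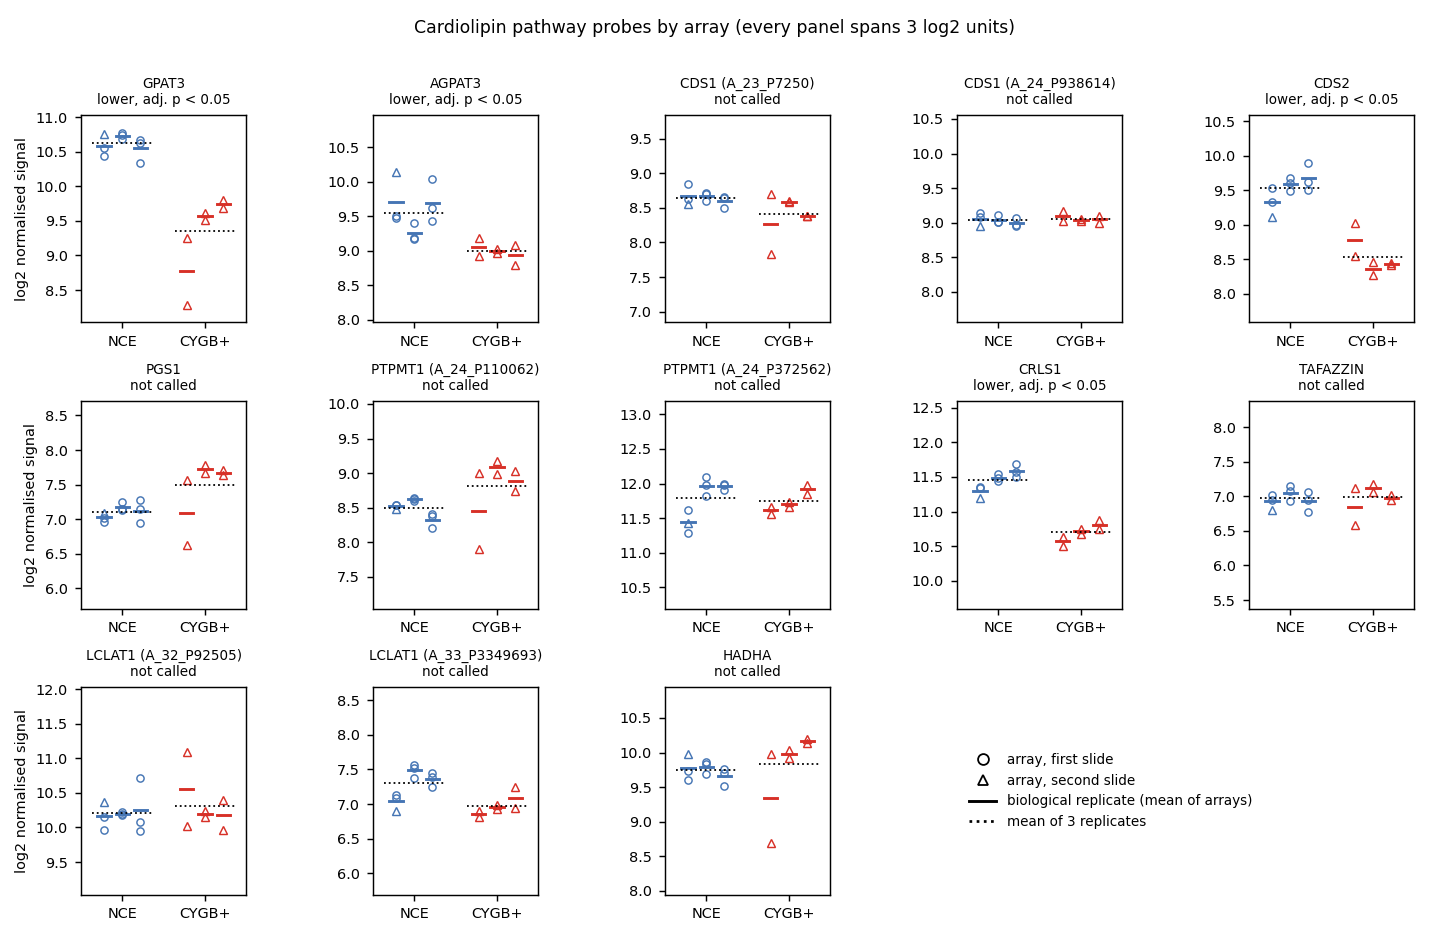
Log2 normalised green signal of each of the 13 probes, in pathway order, by array (circles, first slide; triangles, second slide), with a short line for the mean of each biological replicate and a dotted line for the group mean; NCE in blue and CYGB+ in red, every panel spanning 3 log2 units. For GPAT3, CDS2 and CRLS1 every CYGB+ array lay below every NCE array, for AGPAT3 the highest CYGB+ array (9.19) reached the lowest NCE array (9.17), and in several other panels one CYGB+ triangle stands far from the rest.

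Glycerol 3-phosphate acylation gave the largest difference. GPAT3, an acyltransferase of the endoplasmic reticulum that makes lysophosphatidic acid mainly for glycerolipid synthesis, had log2 signals of 10.58, 10.73 and 10.55 in the NCE replicates and 8.77, 9.56 and 9.74 in the CYGB+ replicates (probe A_23_P69810). All 3 CYGB+ replicates lay below all 3 NCE replicates, and CYGB+ replicate 1 was the lowest. The difference was -1.26 ± 0.24 (log2, SE), with a 95% confidence interval from -1.83 to -0.70 (limma, adjusted p = 0.0214). The spread within CYGB+ (SD 0.52) was wider than within NCE (SD 0.10), and the array repeats of replicate 1 read 8.29 and 9.25.

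AGPAT3 adds the next acyl chain and yields phosphatidic acid. Its log2 signals were 9.70, 9.26 and 9.69 in NCE and 9.06, 9.00 and 8.94 in CYGB+ (probe A_24_P344711). The CYGB+ replicates were close together (SD 0.06) and below every NCE replicate, of which replicate 2 came nearest. The difference of -0.55 ± 0.14 (log2, SE; 95% confidence interval -0.88 to -0.23) passed the threshold narrowly (limma, adjusted p = 0.0473). Leaving out any 1 replicate other than NCE replicate 2 took the adjusted p of AGPAT3 above 0.05, to between 0.0640 and 0.169.

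At the activation step, CDS1 and CDS2 encode paralogous synthases of the endoplasmic reticulum that turn phosphatidic acid into CDP-diacylglycerol. The CDS2 probe (A_24_P271363) read 9.33, 9.59 and 9.67 on the log2 scale in NCE and 8.79, 8.37 and 8.44 in CYGB+. The groups were well separated, and CYGB+ replicate 1 was the CYGB+ replicate nearest to NCE. CDS2 fell by 1.00 on the log2 scale (SE 0.15, 95% confidence interval -1.34 to -0.65; limma, adjusted p = 0.0102), the lowest adjusted p among the 13 probes.

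CDS1 did not pass the test with either of its probes. Probe A_23_P7250 gave 8.68, 8.68 and 8.60 in NCE and 8.27, 8.59 and 8.39 in CYGB+ (log2), so that the CYGB+ replicates lay just below those of NCE. Its difference of -0.23 ± 0.11 (log2, SE) had a 95% confidence interval from -0.49 to 0.02 (limma, adjusted p = 0.212). The separation rested on array repeat 1 of CYGB+ replicate 1, which read 7.84 against 8.69 on the other repeat. Without that array the groups overlapped, and the difference was -0.09 (limma, adjusted p = 0.560). Probe A_24_P938614 gave 9.06, 9.04 and 8.99 in NCE and 9.09, 9.04 and 9.05 in CYGB+, and its interval of -0.17 to 0.22 leaves out a change as large as that of CDS2 (limma, adjusted p = 0.866). Whether the changes of CDS1 and CDS2 differ from each other was not tested.

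The 250 bases upstream of the transcript start are shown for these paralogues, since they act at the same step and gave different calls, and for GPAT3, the member with the largest difference. They come from RefSeq promoters on GRCh38.p14, all on the plus strand, and run 5′ to 3′. Capitals mark matches, on either strand, to the GC box (GGGCGG), the CCAAT box (CCAAT) or the TATA box (TATAAA), and in CDS1 and CDS2 one pair of GC boxes overlaps. The CDS2 stretch is at chr20:5126758-5127007, that of CDS1 at chr4:84582877-84583126, and that of GPAT3 at chr4:83535857-83536106, where the RefSeq start lies 520 bases inside the annotated gene.
CDS2: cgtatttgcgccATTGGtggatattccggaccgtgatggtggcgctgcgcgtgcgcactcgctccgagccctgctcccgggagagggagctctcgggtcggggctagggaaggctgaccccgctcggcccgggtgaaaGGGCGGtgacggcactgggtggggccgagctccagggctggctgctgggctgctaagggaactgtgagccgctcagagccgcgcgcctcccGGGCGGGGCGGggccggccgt
CDS1: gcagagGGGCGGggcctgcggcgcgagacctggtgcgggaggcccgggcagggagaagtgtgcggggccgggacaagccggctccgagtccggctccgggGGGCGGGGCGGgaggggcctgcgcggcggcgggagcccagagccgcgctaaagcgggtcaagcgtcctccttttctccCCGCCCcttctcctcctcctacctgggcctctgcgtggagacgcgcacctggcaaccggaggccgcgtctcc
GPAT3: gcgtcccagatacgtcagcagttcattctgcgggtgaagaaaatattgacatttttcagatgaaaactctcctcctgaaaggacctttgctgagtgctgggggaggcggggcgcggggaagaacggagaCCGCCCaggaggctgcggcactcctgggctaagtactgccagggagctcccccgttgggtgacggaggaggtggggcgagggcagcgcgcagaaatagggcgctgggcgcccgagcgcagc
The CDS2 stretch held 3 GC boxes and 1 CCAAT box, that of CDS1 4 GC boxes, and that of GPAT3 1 GC box. Over 35116 human promoter entries of the same length, 42.6% held a GC box, 32% a CCAAT box and 10.7% a TATA box, which none of the 3 stretches held. Promoter entries were found for 9 of the 10 genes, and for 6 of them an entry began at the annotated start of the gene. No data on binding or methylation at these stretches were analysed.

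Phosphatidylglycerol phosphate is made by PGS1 from CDP-diacylglycerol and glycerol 3-phosphate, the committed step in mitochondria. The PGS1 probe (A_23_P77833) read 7.03, 7.18 and 7.13 in NCE and 7.10, 7.72 and 7.67 in CYGB+ (log2). CYGB+ replicates 2 and 3 were above all NCE replicates, and replicate 1 lay among them. The difference was 0.39 ± 0.17 (log2, SE; 95% confidence interval -0.02 to 0.79) and did not pass the test (limma, adjusted p = 0.200).

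PTPMT1, the mitochondrial phosphatase that turns this product into phosphatidylglycerol, was measured by a pair of probes with differing results. Probe A_24_P110062 gave 8.52, 8.62 and 8.33 in NCE and 8.45, 9.08 and 8.89 in CYGB+, a difference of 0.32 ± 0.17 (log2, SE; limma, adjusted p = 0.285). As for PGS1, CYGB+ replicate 1 lay among the NCE replicates while the other two were above them. Probe A_24_P372562 gave 11.44, 11.97 and 11.96 in NCE and 11.61, 11.70 and 11.92 in CYGB+, with full overlap and a difference of -0.05 ± 0.17 (limma, adjusted p = 0.880). Which transcripts of PTPMT1 each probe detects is not given in the sources used here.

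CRLS1 encodes cardiolipin synthase, the last step of synthesis in the inner membrane. The log2 signals of its probe (A_33_P3502315) were 11.30, 11.49 and 11.59 in NCE and 10.57, 10.71 and 10.81 in CYGB+. The groups were separated by more than the spread within either (SD 0.15 in NCE and 0.12 in CYGB+). CRLS1 fell by 0.76 on the log2 scale (SE 0.11, 95% confidence interval -1.03 to -0.49; limma, adjusted p = 0.0108).

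Among the remodelling enzymes no probe passed the test. TAFAZZIN, formerly TAZ, encodes the mitochondrial transacylase whose loss causes Barth syndrome. Its probe (A_23_P62371) read 6.92, 7.05 and 6.93 in NCE and 6.85, 7.12 and 6.98 in CYGB+ (log2). The groups overlapped fully, and the 95% confidence interval of the difference was -0.23 to 0.26 (limma, adjusted p = 0.941). Its SE was 0.10 in this fit and larger from the processed signal. There the difference was -0.13 ± 0.22 with quantile normalisation and -0.20 ± 0.26 with 75th percentile scaling (log2, SE). Whether a change as large as that of AGPAT3 is left out thus depends on the signal used.

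LCLAT1, an acyltransferase of lysocardiolipin associated with the endoplasmic reticulum, again gave differing results with its probes. Probe A_33_P3349693 gave 7.04, 7.49 and 7.37 in NCE and 6.85, 6.95 and 7.09 in CYGB+ (log2). NCE replicate 1 lay among the CYGB+ replicates, and the difference of -0.33 ± 0.14 (log2, SE; 95% confidence interval -0.65 to -0.0077) had an unadjusted p of 0.046 and did not hold after adjustment over all probes (limma, adjusted p = 0.173). Fitted over the 15 arrays with replicate as a random block it was called lower (limma, adjusted p = 0.0385). That fit called 4856 probes in all, against 2414 in the main fit. Its consensus correlation was 0.165, so array repeats of 1 RNA extraction weighed nearly as separate samples. With slide as a block the difference of this probe was 0.0013 (limma, adjusted p = 0.999). Probe A_32_P92505 gave 10.16, 10.20 and 10.25 in NCE and 10.56, 10.19 and 10.18 in CYGB+, a difference of 0.11 ± 0.12 (limma, adjusted p = 0.620).

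HADHA, the alpha subunit of the mitochondrial trifunctional protein of fatty acid oxidation, has also been described as an acyltransferase of monolysocardiolipin. Its probe (A_24_P242688) read 9.77, 9.80 and 9.66 in NCE and 9.34, 9.98 and 10.17 in CYGB+ (log2). CYGB+ replicate 1 was below and the other two above all NCE replicates. The difference was 0.09 ± 0.21 (log2, SE; 95% confidence interval -0.40 to 0.57; limma, adjusted p = 0.826).

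**Figure D2:**
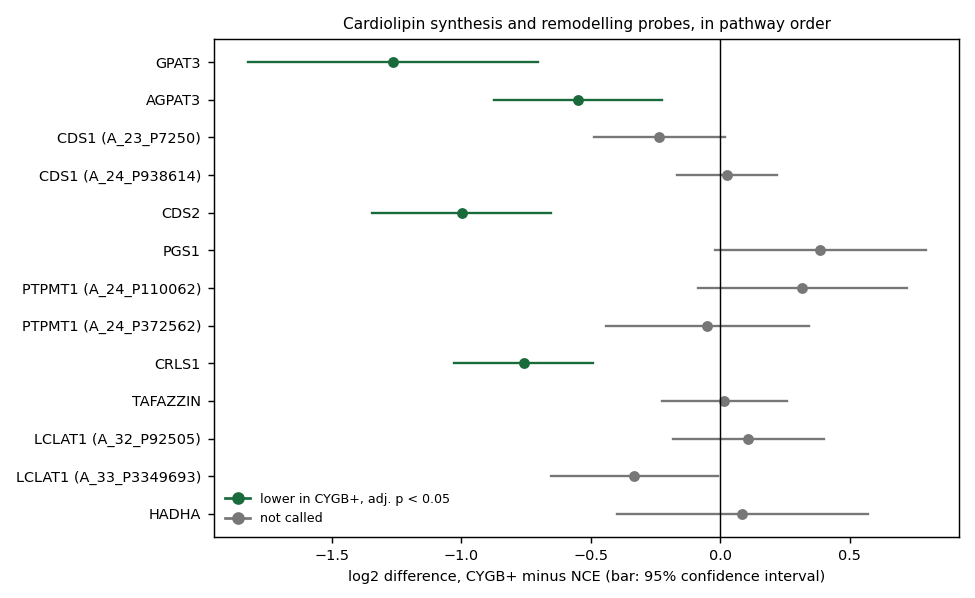
Log2 difference (CYGB+ minus NCE) of each probe in pathway order, as points with 95% confidence intervals from the limma fit of 3 against 3 biological replicates; green, lower with an adjusted p under 0.05; grey, not called. The intervals of GPAT3, AGPAT3, CDS2, CRLS1 and LCLAT1 probe A_33_P3349693 lie below 0, the last of them without a call after adjustment, and those of the other probes span 0.

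Slide moved some of these differences. On the second slide alone, all 6 CYGB+ arrays lay below the single NCE array for GPAT3 (8.29 to 9.80 against 10.76), AGPAT3 (8.79 to 9.19 against 10.14), CDS2 (8.28 to 9.02 against 9.11) and CRLS1 (10.51 to 10.87 against 11.20), on the log2 scale. For no other member probe did all 6 lie below it. The NCE array on the second slide differed from the arrays of the same replicate on the first slide: AGPAT3 read 10.14 on it against 9.48 and 9.50, and CDS2 9.11 against 9.34 and 9.53.

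With slide as a fixed block over the 15 arrays and biological replicate as a random block, GPAT3 (-1.43, adjusted p = 0.0467) and AGPAT3 (-1.14, adjusted p = 0.0145) stayed below the threshold in limma. CDS2 (-0.62, adjusted p = 0.177) and CRLS1 (-0.54, adjusted p = 0.0502) kept their direction and did not pass it. That fit called 2 of the 13 probes, both lower, against 3.26% of all probes and 2% called lower. In it, slide and group are told apart only through the 1 NCE array of the second slide. Array repeats entered with a consensus correlation of 0.173. Its p-values therefore do not rest on replicated NCE arrays within that slide. Within the second slide, where the NCE side is 1 array, the differences were -1.40 for GPAT3, -1.14 for AGPAT3, -0.58 for CDS2 and -0.50 for CRLS1, with adjusted p-values in limma from 0.214 to 0.455. The difference of LCLAT1 probe A_33_P3349693 came to 0.00 with the block and 0.07 within the second slide.

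**Figure D3:**
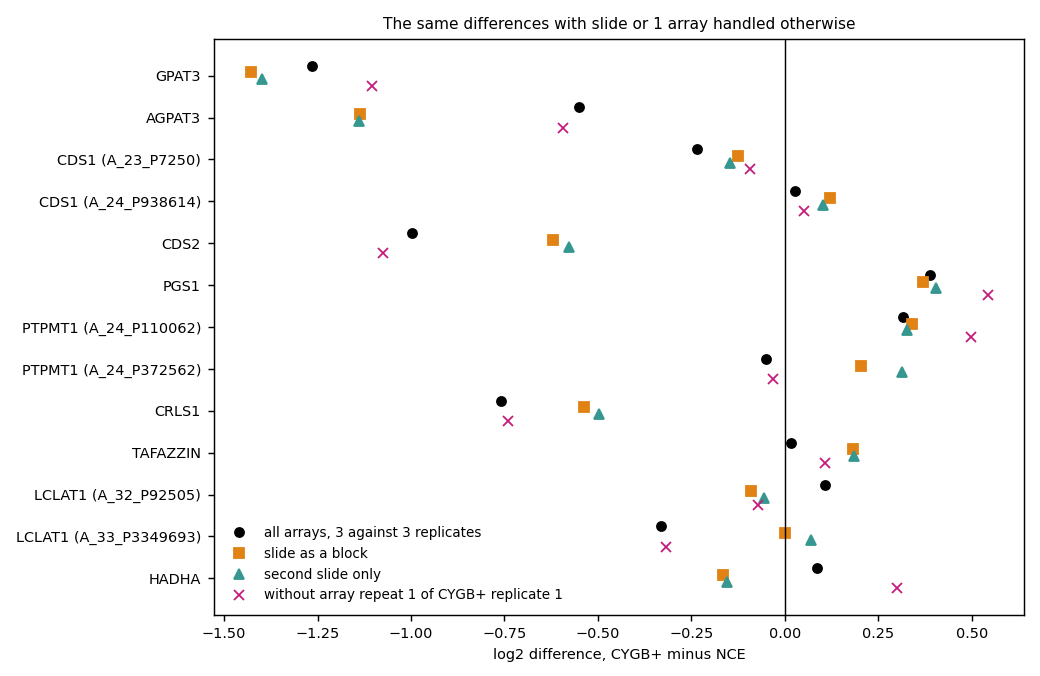
Log2 difference (CYGB+ minus NCE) of the 13 probes in 4 versions of the comparison: all arrays averaged to 3 against 3 replicates (black circles), slide as a block (orange squares), the second slide only (green triangles), and without array repeat 1 of CYGB+ replicate 1 (crosses). GPAT3, AGPAT3, CDS2 and CRLS1 lie below 0 in all 4, and AGPAT3 moves from -0.55 to -1.14 with slide. Without the one array, PGS1, PTPMT1 probe A_24_P110062 and HADHA are among the probes that move upward, and LCLAT1 probe A_32_P92505 moves downward.

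The array that stood apart weighed on members along the pathway, from GPAT3 to HADHA. On array repeat 1 of CYGB+ replicate 1, PGS1 read 6.63 against 7.56 on the other repeat of the same replicate, PTPMT1 probe A_24_P110062 7.90 against 9.00, and HADHA 8.69 against 9.98. GPAT3 was also lower on it, and LCLAT1 probe A_32_P92505 was higher, at 11.10 against 10.03. Its values were lower for some members and higher for others.

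Without that array, a setting chosen after seeing the data, the 4 members that fell did so again: GPAT3 by 1.10, AGPAT3 by 0.59, CDS2 by 1.08 and CRLS1 by 0.74 on the log2 scale, with adjusted p-values in limma from 0.0016 to 0.0188. PGS1 (0.54, adjusted p = 0.0063) and PTPMT1 probe A_24_P110062 (0.50, adjusted p = 0.0158) then rose. HADHA had a difference of 0.30 and did not pass (limma, adjusted p = 0.0546), with its 3 CYGB+ values (9.98 to 10.17) all above NCE. In that setting 6 of 13 member probes were called, against 18.4% of all probes, 9.05% lower and 9.35% higher. Of the 13, 4 had CYGB+ wholly below NCE and 3 wholly above, against 18.1% and 19.2% of all probes.

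Leaving out a biological replicate mattered to the calls and not to their direction. Without NCE replicate 1, CDS2 and CRLS1 stayed called. Without NCE replicate 2 the called member was AGPAT3, and without NCE replicate 3 there was none, where GPAT3 had an adjusted p of 0.0736, CDS2 0.0517, CRLS1 0.0549 and AGPAT3 0.169 (limma). Leaving out a CYGB+ replicate left GPAT3, CDS2 and CRLS1 called each time, and PGS1 rose by 0.59 without CYGB+ replicate 1 (limma, adjusted p = 0.0176).

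The remaining genes of cardiolipin metabolism were taken as a list of 27, of which 26 had 36 probes and 32 probes were bright enough to test. Of these, 2 rose, 0 fell and 30 were not called, against 10.8% over all probes. The median log2 difference of the 32 was 0.08, with a range from -0.68 to 1.05.

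Both probes that rose belong to the transfer of phosphatidic acid to the inner membrane. PRELID3A, a member of the PRELI family of lipid transfer proteins, read 8.82, 9.04 and 8.97 in NCE and 9.95, 9.92 and 10.12 in CYGB+ (log2). The groups were far apart for their spread, and the rise of 1.05 ± 0.10 (log2, SE; limma, adjusted p = 0.0045) remained a call with slide as a block (0.83, adjusted p = 0.0230). That block fit again tells slide from group only through the single NCE array of the second slide. PRELID1, which carries phosphatidic acid across the intermembrane space, read 13.12, 13.28 and 12.95 in NCE and 13.90, 13.75 and 13.59 in CYGB+ with probe A_33_P3378360, a rise of 0.63 ± 0.13 (limma, adjusted p = 0.0241) that was not called with slide as a block (0.86, adjusted p = 0.153). Its other probe gave 0.70 ± 0.21 (limma, adjusted p = 0.0751).

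PRELID3B, the paralogue of PRELID3A, had a difference in the opposite direction, -0.68 ± 0.20 (log2, SE; limma, adjusted p = 0.0756), which passed with the replicate number as a block (adjusted p = 0.0289). With slide as a block it came to -0.18 (limma, adjusted p = 0.903). TAMM41, the CDP-diacylglycerol synthase inside mitochondria that supplies PGS1, had a difference of -0.50 ± 0.14 (limma, adjusted p = 0.0679). PRELID3B and TAMM41 were named after their values were seen. Without the array that stood apart, both were called lower and 10 of the 32 list probes were called, 7 higher and 3 lower. Over all probes, 18.4% were called in that setting, 9.35% higher and 9.05% lower.

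No probe was called among the other acyltransferases (8 probes, -0.39 to 0.42 on the log2 scale), the deacylation and remodelling partners (3 probes, 0.03 to 0.21), the genes of cardiolipin transport and hydrolysis (3 probes, -0.35 to 0.33) or the prohibitin, stomatin and cristae partners (10 probes, -0.24 to 0.28). The probes of CDIPT, another user of CDP-diacylglycerol, and PISD, which makes phosphatidylethanolamine in mitochondria, were not called either, with differences of 0.25 and -0.32. The brightest probe of the acylation group, for AGPAT2, which makes phosphatidic acid as AGPAT3 does, had a difference of -0.13. Of the cristae group the brightest was a PHB1 probe, a subunit of the prohibitin ring, with -0.02. The other PHB1 probe had a difference of 0.28 with no overlap between replicates (limma, adjusted p = 0.0712).

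**Figure D4:**
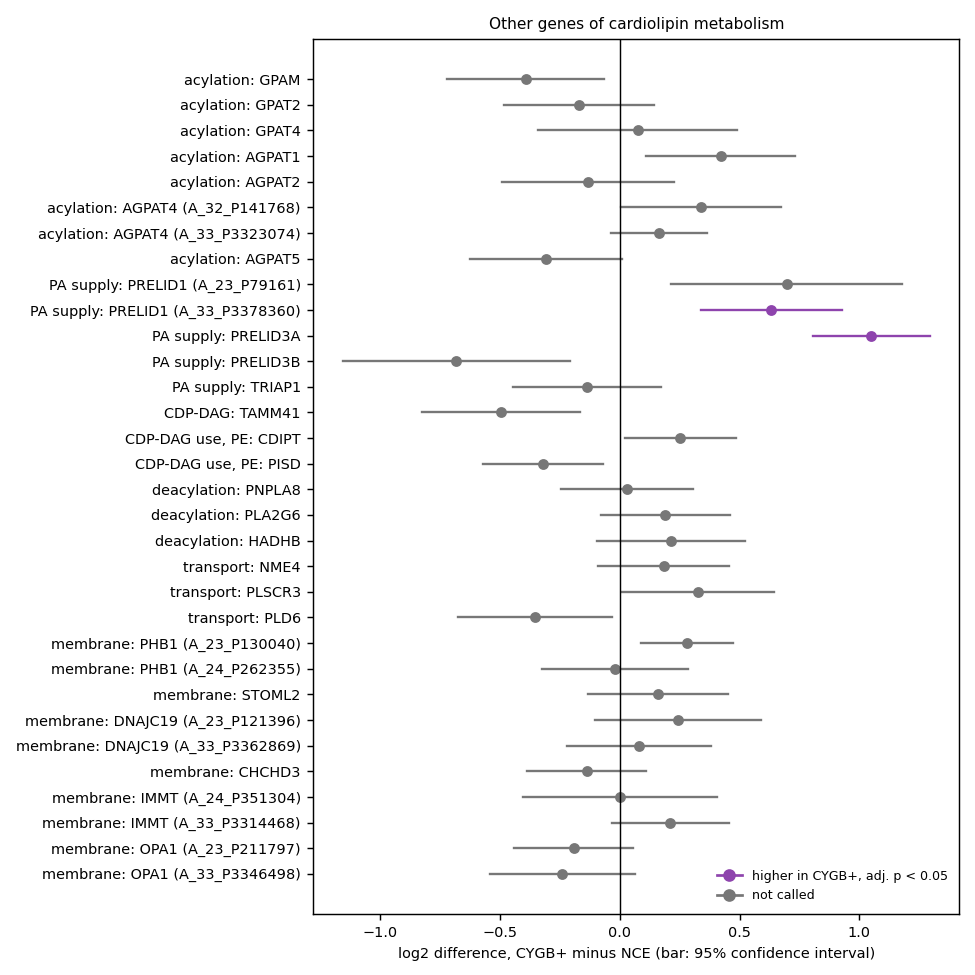
Log2 difference (CYGB+ minus NCE) with 95% confidence interval for the 32 tested probes of other genes of cardiolipin metabolism, grouped by role (PA, phosphatidic acid; CDP-DAG, CDP-diacylglycerol; PE, phosphatidylethanolamine); purple, higher with an adjusted p under 0.05; grey, not called. PRELID3A (1.05) and one PRELID1 probe (0.63) are called higher, several grey intervals also lie to one side of 0 without a call after adjustment, and PRELID3B (-0.68) lies lowest.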

How the data were processed

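The deposited files were 15 Agilent scanner files, made per the file headers with Feature Extraction 10.7.3.1 under protocol GE2_107_Sep09 (array annotation hg19), and a value table. The scanner intensity columns deposited by the authors are median pixel intensities of spot and local background, and processed intensities that had been background-subtracted and dye-normalised; other deposited columns are 0 or 1 flags. The value table deposited by the authors follows the natural log of the green processed signal (slopes 0.866 to 1.01), centred per probe on the CYGB+ arrays, with column medians from -0.16 to 0.18. It has 15031 probes and served as an alternative. No authors' comparison columns were used.

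The green channel was used for all arrays, because the labels name Cy3 for every sample. The methods name Cy5 for controls, and the sample in the red channel is not named by the labels, so this conflict stays unsettled and the red channel was not used. The mean signal planned for the fit was not among the columns of the files used here, and the median signal took its place. It was corrected with normexp (offset 50), log2-transformed and quantile normalised over 15 arrays. Spots flagged as outliers were left out, spots of a probe and then array repeats of a biological replicate were averaged, and probes well above background on at least 6 arrays (22311) were tested as CYGB+ minus NCE with lmFit and eBayes of limma 3.58.1 (R 4.3.3), with Benjamini-Hochberg adjustment and a two-sided threshold of 0.05. The precision is limited by 3 replicates per group, and p-values measure the spread between these. The steps were tested on simulated data.

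RefSeq accessions of the array design were named through NCBI's gene table (25422 of 26310 matched), whose assembly differs from that of the design, so no gene coordinates are given. Deviations from the group means correlated at r = 0.212, 0.229 and 0.302 across probes between replicates with equal numbers, and from -0.499 to 0.289 between those with unequal numbers, and a fit with the number as a block was made. The members and gene lists were chosen with earlier results of these data known. By rule all member probes were named, list genes where a probe was called, and the brightest probe of some groups with none. PRELID3B, TAMM41, CDIPT, PISD and the other PHB1 probe were named after their values were seen. Alternatives covered the signal column, scaling, the value table, the filter, array repeats, slide, the methods' test and leaving out replicates.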

Additional observations from a re-analysis of the deposited data

Results flagged for a closer look

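One array was far from the other arrays of its group for several probes. For the 13 member probes and the cytoglobin probe, the gap between the highest or lowest array and the nearest other array of its group was set against the range of the group (Dixon's ratio), and 6 of 28 groups of arrays passed the 95% limit, where chance gives about 1 in 20. All 6 were array repeat 1 of CYGB+ replicate 1. On it the log2 signal was 8.29 for GPAT3 (other CYGB+ arrays 9.25 to 9.80), 7.84 for CDS1 A_23_P7250 (8.39 to 8.69), 6.63 for PGS1 (7.56 to 7.78), 7.90 for PTPMT1 A_24_P110062 (8.74 to 9.18), 8.69 for HADHA (9.92 to 10.19) and 9.02 for CDS2 (8.28 to 8.55). The value of CDS2 was above the other arrays and the rest were below them. Arrays of 1 biological replicate are repeats and not independent samples.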

How the results depend on the processing

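In 19 alternatives the 4 probes called lower kept their direction, in 44 of 76 results with an adjusted p under 0.05 and in 32 without. The adjusted p in limma ranged from 0.00022 to 0.311 for GPAT3 (past the threshold in 12 of 19), 0.0145 to 0.214 for AGPAT3 (6), 5.2e-05 to 0.455 for CDS2 (13) and 8.6e-06 to 0.436 for CRLS1 (13). Beside 2414 calls over all probes, there were 1523 from the processed signal with 75th percentile scaling, 376 with median scaling, 1444 in the value table, 4856 with 15 arrays and replicate as a random block, 727 with slide as a block, 5 within the second slide, 659 with the methods' t-test after Benjamini-Hochberg adjustment, 4106 without array repeat 1 of CYGB+ replicate 1 (an alternative chosen after seeing the data) and 492 to 2397 leaving out 1 replicate (492 without NCE replicate 2, 495 without NCE replicate 3, 1162 without NCE replicate 1, 1265 without CYGB+ replicate 3). Beside 4 member probes, 0 were called with median scaling, within the second slide and by the methods' t-test, 2 without a filter and with slide as a block, 5 with 15 arrays and replicate as a random block (LCLAT1 A_33_P3349693 added), and 0 to 4 leaving out 1 replicate. Beside 2 list probes, 0 were called with median scaling and within the second slide, 1 with slide as a block, 7 with 15 arrays, 10 without that array and 1 to 4 leaving out 1 replicate. With the replicate number as a block, 2928 probes, the same 4 member probes and 3 list probes were called, with no other change among the member and list probes.

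The cytoglobin difference turned to 0.091 from the processed signal with 75th percentile scaling and 0.047 in the value table, and ranged from -0.31 to 0.22 leaving out 1 replicate. Member probes with no call also turned sign (log2). PTPMT1 A_24_P372562 was 0.0093 and 0.14 from the processed signal with quantile and 75th percentile scaling, 0.044 in the value table, 0.20 with slide as a block, 0.31 within the second slide and -0.22 to 0.038 leaving out 1 replicate. TAFAZZIN A_23_P62371 was -0.13, -0.20 and -0.056 in the same first 3 settings, -0.0051 with NCE arrays of the first slide only, 0.11 without that array and -0.052 to 0.082 leaving out 1 replicate. LCLAT1 A_32_P92505 was -0.013 with the quantile-normalised processed signal, -0.089 with slide as a block, -0.054 within the second slide, -0.070 without that array and -0.017 to 0.17 leaving out 1 replicate. LCLAT1 A_33_P3349693 was 0.0013 with slide as a block and 0.069 within the second slide. HADHA A_24_P242688 was -0.17 and -0.15 in those settings and -0.084 to 0.33 leaving out 1 replicate. The cause was not tested. Where a group was left with 1 array, that array was assumed to vary like the others.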
